A study of Mus musculus with 10 samples.

Results

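The nuclear genes for respiratory complexes II to V were followed in RNA-seq libraries of adult mouse left atria. Members were the protein-coding genes whose symbols begin with Uqcr, Cox4 to Cox8 or Atp5, or are Sdha, Sdhb, Sdhc, Sdhd or Cyc1, with pseudogenes left out and at least 10 counts in at least 3 libraries. Of 48 matching symbols among the 37583 gene identifiers of each library, 46 met this rule: 4 of complex II, 9 of complex III, 16 of complex IV and 17 of complex V. Of the 2 left out, Cox7b2 had 17 counts over all 10 libraries, 5 at most in 1 of them, and Cox8c had 0. The 46 members were also the members that passed the expression filter of the test, which kept 15364 genes.

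The study has 2 experiments. In the treatment experiment, 3 libraries came from mice given the kinase inhibitor ibrutinib (IBR) and 3 from mice given vehicle (CTL), and in the genotype experiment 2 came from untreated wild types (WT35 and WT338) and 2 from cardiac CSK knockouts (KO26 and KO337). CSK is the kinase that restrains the Src family. The labels give the tissue as left atria and the stage as adult for every library, and the ibrutinib dose, the strain, the sex, the driver of the knockout and the treatment of the knockouts do not appear in the sources used here. Nothing says that the libraries came from separate animals, so p-values measure the spread between libraries, which may be technical.

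The targeted gene did not bear out the genotype labels. Csk stood at 18.3 and 17.8 CPM (counts scaled by a library's total and its TMM factor) in WT35 and WT338. KO26 and KO337 had 24.7 and 35.5 CPM, a difference of 0.74 on the log2 scale (edgeR adjusted p = 0.0608), so those 2 libraries are called labelled KO here. In a bulk atrium a gene deleted in 1 cell type is still read from the others, and which part of Csk was deleted was not stated. Libraries held 14907331 to 19960947 counts on genes. Of these counts the members took 3.20% to 3.77% in CTL, 3.06% to 3.24% in IBR, 2.76% and 2.39% in WT35 and WT338, 2.15% in KO26 and 1.33% in KO337. KO337 had the lowest share of the 10 libraries, and CTL3, at 3.20%, lay within the IBR range.

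Complex II oxidises succinate and feeds ubiquinone, complex III passes electrons from ubiquinol to cytochrome c, complex IV hands them to oxygen, and complex V uses the resulting proton gradient to make ATP. Atrial cardiomyocytes are packed with mitochondria, and much of the members' RNA in heart tissue belongs to them. Several subunits of complex IV come in pairs, with one isoform typical of heart and skeletal muscle (Cox6a2, Cox7a1, Cox8b) and one found in most tissues (Cox6a1, Cox7a2, Cox8a). In a bulk sample, fewer cardiomyocytes and less RNA per cardiomyocyte cannot be told apart.

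Promoters of RefSeq (build GRCm38.p6, 250 bases before to 50 bases after the start) were matched for 33 of the 46 members. Searched on both strands, the NRF1 motif GCGCATGC occurred in 7 of the 33 (21.2%), against 3.94% of the 17492 protein-coding genes in the same table. The ETS motif CCGGAAGT, bound by GABPA, occurred in 4 (12.1% against 5.69%), the estrogen-related receptor (ERR) motif TCAAGGTCA in 2 (6.06% against 0.377%), the YY1 motif AAGATGGC in 2 (6.06% against 3.57%) and the CCAAT box in 18 (54.5% against 42.3%). The promoters shown belong to muscle and widespread isoforms of complex IV with an entry in the table, to Uqcrc1, the member with the smallest adjusted p, and to Atp5g3, one of the 2 with an ERR motif. Capitals mark the motifs, and where GCGCATGCGC is printed the NRF1 motif is read on both strands with 6 bases of overlap. The windows are Cox6a1 (chr5:115348909-115349208, minus strand), Cox8a (chr19:7217567-7217866, minus strand), Cox7a2 (chr9:79759804-79760103, minus strand), Cox8b (chr7:140900397-140900696, minus strand), Cox7a1 (chr7:30183921-30184220, plus strand), Uqcrc1 (chr9:108936398-108936697, plus strand) and Atp5g3 (chr2:73911277-73911576, minus strand). Of the widespread isoforms, Cox6a1 holds the NRF1 motif and a CCAAT box, Cox8a holds 2 ETS motifs and a CCAAT box, and Cox7a2 holds none of the 5 motifs. Of the muscle isoforms, Cox8b holds none and Cox7a1 holds 2 CCAAT boxes. A match describes these letters only and shows no binding.
Cox6a1: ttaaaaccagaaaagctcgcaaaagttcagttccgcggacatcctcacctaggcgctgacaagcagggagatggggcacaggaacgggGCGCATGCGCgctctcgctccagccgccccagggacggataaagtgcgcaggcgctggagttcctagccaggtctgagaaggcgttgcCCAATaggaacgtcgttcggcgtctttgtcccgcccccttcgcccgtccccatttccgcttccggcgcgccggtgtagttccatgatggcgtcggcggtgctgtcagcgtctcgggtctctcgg
Cox8a: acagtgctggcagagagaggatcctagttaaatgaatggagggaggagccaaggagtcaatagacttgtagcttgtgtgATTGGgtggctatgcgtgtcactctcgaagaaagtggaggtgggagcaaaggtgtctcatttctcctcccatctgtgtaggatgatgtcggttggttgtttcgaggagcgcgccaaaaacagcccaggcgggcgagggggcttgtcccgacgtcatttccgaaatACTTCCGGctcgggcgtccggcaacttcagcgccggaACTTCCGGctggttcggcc
Cox7a2: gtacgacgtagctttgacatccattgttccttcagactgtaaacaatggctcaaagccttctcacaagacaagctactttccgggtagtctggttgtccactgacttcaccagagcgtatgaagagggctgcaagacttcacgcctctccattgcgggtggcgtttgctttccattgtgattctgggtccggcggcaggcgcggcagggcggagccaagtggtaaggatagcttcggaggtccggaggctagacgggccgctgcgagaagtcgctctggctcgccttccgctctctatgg
Cox8b: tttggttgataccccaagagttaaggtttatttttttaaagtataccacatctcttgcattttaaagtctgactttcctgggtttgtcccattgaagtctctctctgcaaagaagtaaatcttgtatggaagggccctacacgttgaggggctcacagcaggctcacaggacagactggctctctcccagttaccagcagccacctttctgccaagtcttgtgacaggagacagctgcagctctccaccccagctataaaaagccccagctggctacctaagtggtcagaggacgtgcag
Cox7a1: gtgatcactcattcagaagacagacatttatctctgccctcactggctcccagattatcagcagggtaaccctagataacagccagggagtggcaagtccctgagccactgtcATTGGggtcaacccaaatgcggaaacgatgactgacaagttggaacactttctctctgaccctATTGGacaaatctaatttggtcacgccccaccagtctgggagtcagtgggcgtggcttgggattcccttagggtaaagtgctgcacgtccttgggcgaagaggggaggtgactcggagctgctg
Uqcrc1: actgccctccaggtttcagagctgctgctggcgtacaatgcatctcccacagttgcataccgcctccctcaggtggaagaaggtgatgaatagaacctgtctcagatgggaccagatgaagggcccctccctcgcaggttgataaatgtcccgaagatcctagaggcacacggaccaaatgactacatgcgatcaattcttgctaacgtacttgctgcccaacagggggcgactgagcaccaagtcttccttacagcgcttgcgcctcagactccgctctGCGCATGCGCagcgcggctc
Atp5g3: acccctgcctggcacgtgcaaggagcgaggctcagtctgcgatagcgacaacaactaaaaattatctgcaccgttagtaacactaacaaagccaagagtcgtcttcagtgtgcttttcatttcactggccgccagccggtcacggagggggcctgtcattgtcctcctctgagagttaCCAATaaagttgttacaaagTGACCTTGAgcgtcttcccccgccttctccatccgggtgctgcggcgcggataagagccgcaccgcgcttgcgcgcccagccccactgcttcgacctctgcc

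Per kilobase of transcript, Atp5b, the catalytic beta subunit of complex V, led every group. It had a group mean of 3930 CPM per kilobase in CTL, 3560 in IBR, 2730 in WT and 1490 in labelled KO. Atp5a1, the alpha subunit, followed in WT at 1530 CPM per kilobase, and Atp5g3, 1 of 3 genes for the membrane ring subunit c, stood at 1280. In complex IV, Cox4i1 led in WT at 1180 CPM per kilobase. In complex III, Uqcrh, the hinge subunit, led at 838, and in complex II Sdha, the flavoprotein, led at 409 CPM per kilobase, with Sdhb, the iron-sulfur subunit, at 395. Cox4i2 and Cox6b2, isoforms known from lung and testis, stayed at 2.64 and 2.49 CPM per kilobase in WT, and Atp5s, a coupling factor B-like gene rather than a core subunit, at 15.9. The remaining members lay between those extremes.

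**Figure D1:**
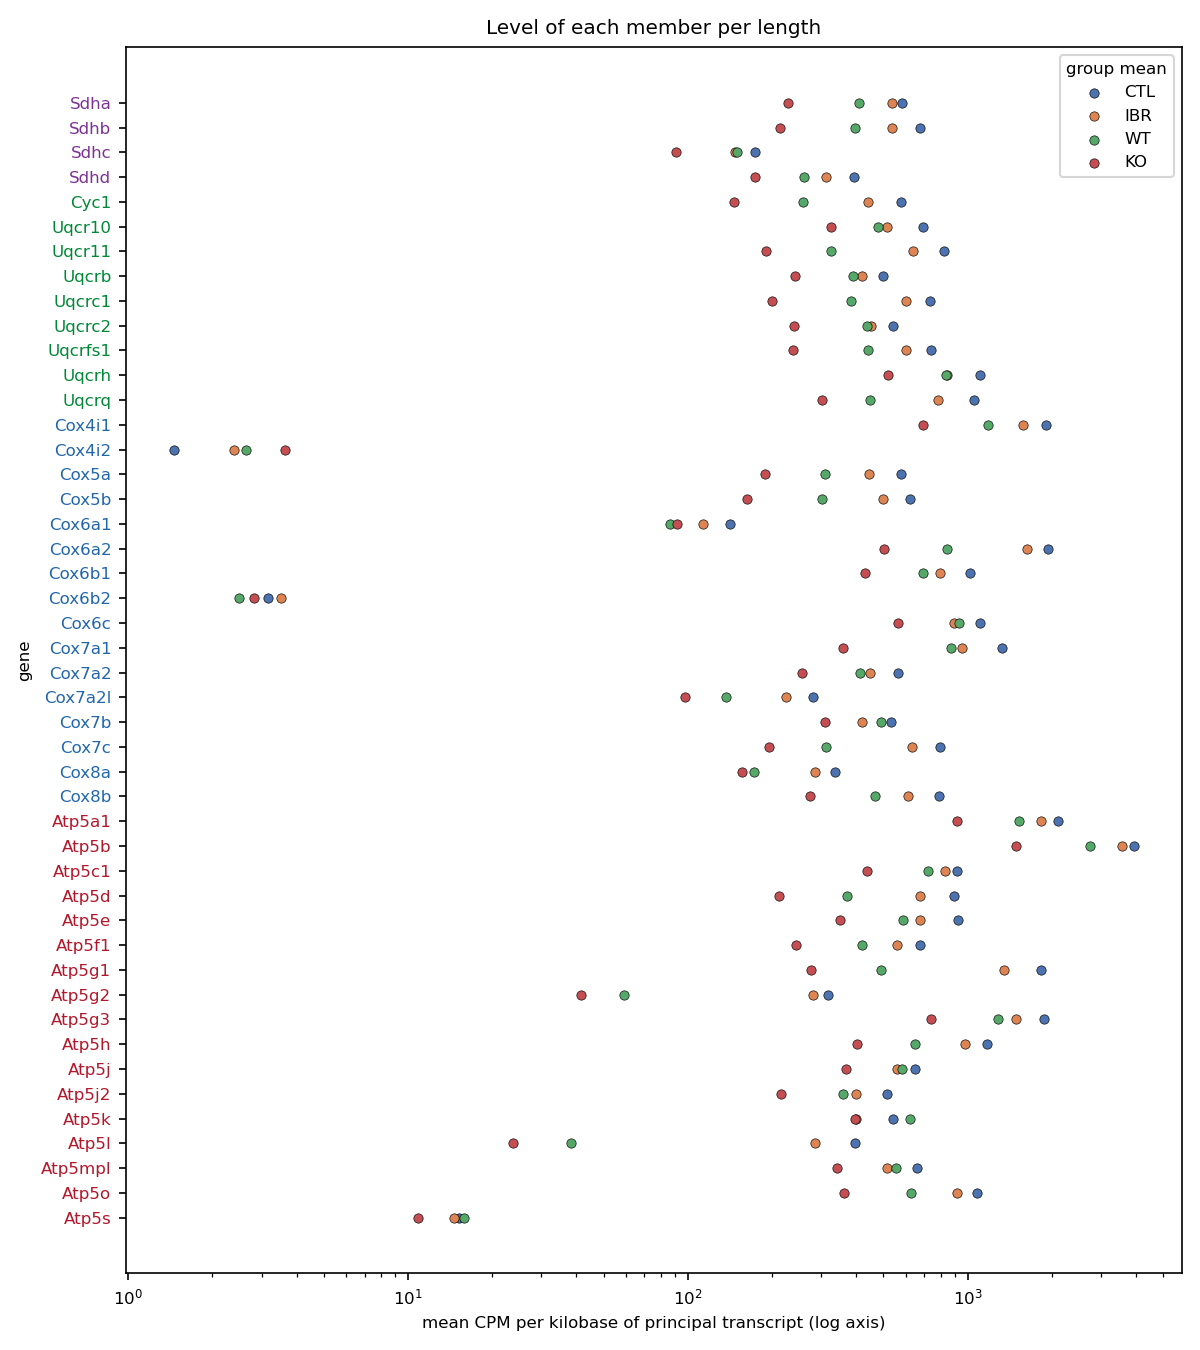
Mean level of each member in the 4 groups, as TMM-scaled CPM per kilobase of principal transcript on a log axis, with gene names coloured by complex (II purple, III green, IV blue, V red). Atp5b stands highest in each group, from 3930 in CTL to 1490 in labelled KO, and Cox4i2 and Cox6b2 lie far to the left at 1.46 to 3.64.

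In the genotype experiment the members stood below wild type almost without exception, but none passed the test. Of the 46 members, 43 had a negative labelled KO minus WT difference, against 49.2% of all genes tested, and the median member stood at -0.72 on the log2 scale, or 60.6% of WT, where the median of all genes was 0.01. edgeR called 0 of 46 members at an adjusted p under 0.05, where it called 2.21% of all genes and 0.898% as lower. At an unadjusted p under 0.05, 36 members were lower, against 12.4% of all genes, and the smallest adjusted p was 0.0780. Every labelled KO library lay below every WT library for 42 of 46 members, a pattern held by 26.9% of all genes. The differences were tightly grouped, with quartiles of -0.80 and -0.66, where those of all genes were -0.32 and 0.40.

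The count of calls depended on the method, the filter and 1 library. DESeq2 called 20 members (11.9% of all genes), 20 of 20 lower, and edgeR without a filter on low counts called 18 (4.68% of all genes), while limma voom called 0 (0.807%). The median member stood at -0.42 in KO26 and at -1.16 in KO337, each against the WT mean. KO26 lay below both WT libraries for 42 of 46 members, as it did for 38.0% of all genes, and KO337 lay below KO26 for 42, as it did for 52.0%. Without KO337 the median was -0.44 with 0 members called (0.348% of all genes), and without KO26 it was -1.18 with 40 called (24.3%); in each the lone labelled KO library is assumed to vary like the other groups. Scaling by total counts moved the median of all genes to 0.23 and that of the members to -0.51, so the distance between them, -0.74, was the same size as with TMM scaling, -0.73.

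**Figure D2:**
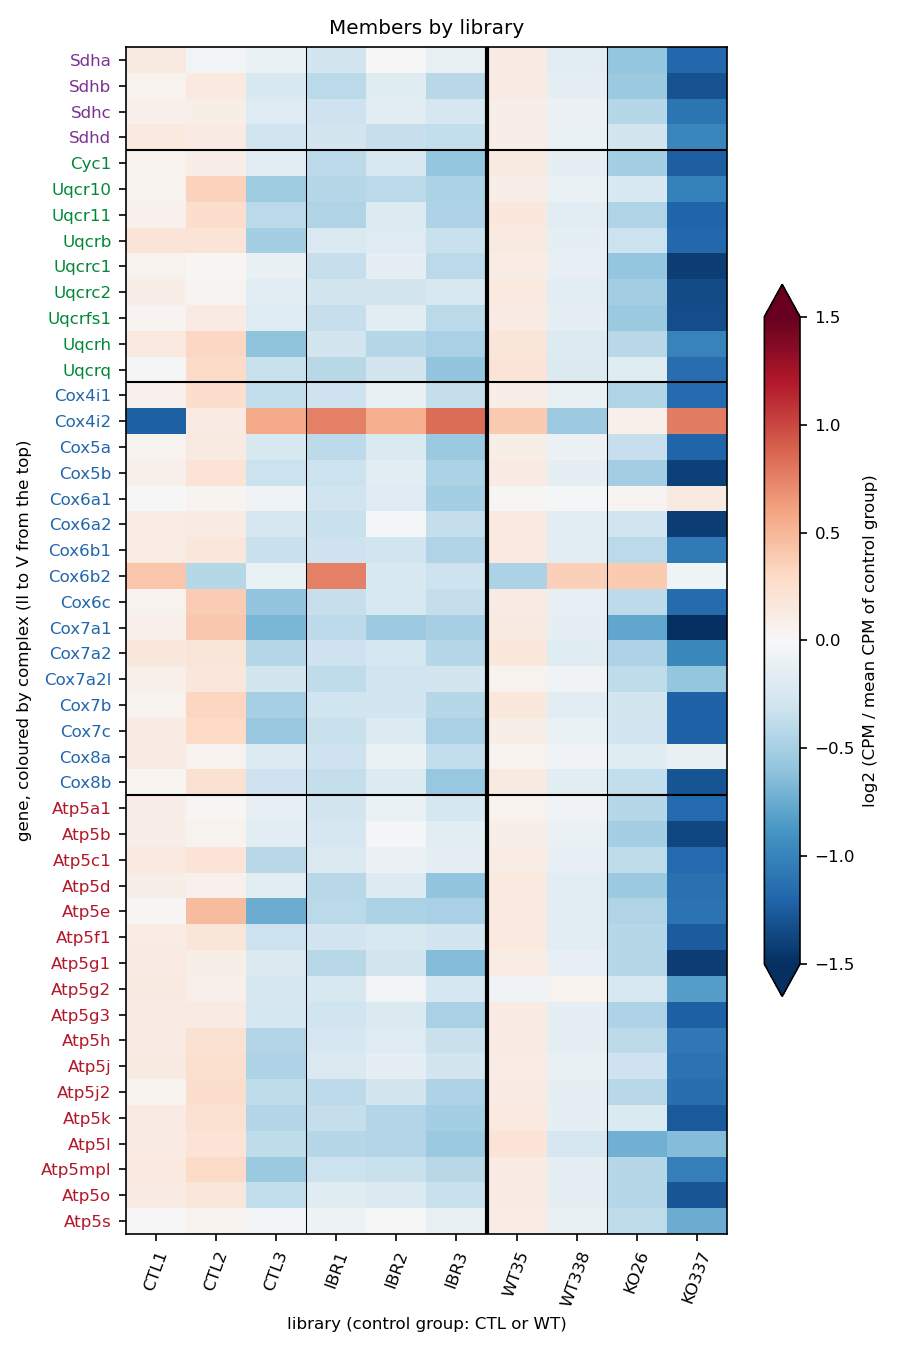
Each member (vertical axis, coloured by complex from II at the top to V) in each of the 10 libraries (horizontal axis), as log2 of its CPM over the mean CPM of its control group, CTL or WT; colours stop at -1.5 and 1.5, and Cox7a1 in KO337 lies beyond at -2.05. The KO337 column is the darkest blue, KO26 is paler, and CTL3 is blue for most members; Cox6a1 and Cox8a stay near white in the genotype experiment.

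In the treatment experiment the members also stood below control, by less, and how far the groups overlapped depended on single libraries. Of 46 members 44 had a negative IBR minus CTL difference, against 55.2% of all genes, and the median was -0.32, or 79.9% of CTL, where all genes had -0.03. edgeR called 0 of 46 members, where it called 0.0% of all genes; DESeq2, limma voom and edgeR without a filter on low counts also called 0 members, with 0.013%, 0.0% and 0.00817% of all genes. At an unadjusted p under 0.05, 3 members were lower (Cox6a1, Atp5l and Cox7a2l), against 2.21% of all genes, and the smallest adjusted p was 0.823. Every IBR library lay below every CTL library for 8 of 46 members, against 7.55% of all genes; 0 members had every IBR library above every CTL library, against 5.91% of all genes.

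CTL3 stood apart from CTL1 and CTL2. It lay below both for 44 of 46 members, as it did for 35.3% of all genes, by a median of -0.45. It lay inside the range of the IBR libraries for 22 of 46 members, near the share of all genes, 52.4%. For others CTL3 lay below every IBR library, as for Uqcrh (400 against 435 to 503 CPM) and Atp5c1 (800 against 921 to 1010 CPM). For the 8 members whose groups did not overlap, CTL3 lay above every IBR library. Without CTL3, every IBR library lay below both remaining CTL libraries for 43 of 46 members, against 19.8% of all genes, and the median difference was -0.45, still with 0 members called. With CTL3 kept and IBR2 left out, both remaining IBR libraries lay below every CTL library for 22 members, against 17.3% of all genes. The distance of CTL3 from the mean of CTL1 and CTL2 was a median of -0.54 for the 31 members with a transcript under 1000 bases and -0.28 for the 15 longer ones. CTL3 also had the largest summed level of fibroblast markers in CTL, 1658 CPM against 1128 and 1062, and of endothelial markers, 1061 CPM against 580.6 and 690.6; their part in the members' values was not tested.

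Complex II had 4 of 4 subunits with negative differences in both experiments. Sdha stood at 1300 and 1070 CPM in the WT libraries, with 799 in KO26 and 525 in KO337, a log2 difference of -0.84 ± 0.24 (SE; edgeR adjusted p = 0.0802). Its labelled KO libraries lay below both WT libraries, a pattern of 26.9% of all genes, and KO337 was the lowest. Sdhb, which carries the iron-sulfur clusters, stood at 493 and 410 against 307 and 182 CPM (-0.89 ± 0.25; adjusted p = 0.0813). The membrane anchors Sdhc and Sdhd had differences of -0.72 and -0.58. Under ibrutinib Sdha had 1860, 1650 and 1590 CPM in CTL and 1400, 1690 and 1580 in IBR, with overlapping groups and a difference of -0.13 ± 0.19. The other 3 had differences from -0.24 to -0.33. In 0 of 4 subunits every IBR library lay below every CTL library, a pattern of 7.55% of all genes.

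Complex III had 9 of 9 subunits with negative differences in both experiments. Uqcrc1, a core protein of the complex, stood at 682 and 579 CPM in WT, with 423 in KO26 and 238 in KO337, or 52.4% of WT on the CPM scale (-0.93 ± 0.26; edgeR adjusted p = 0.0780, the smallest among the members). The other core protein, Uqcrc2, had 912 and 742 against 577 and 327 CPM (-0.87 ± 0.26). Of the electron carriers, Uqcrfs1, the Rieske iron-sulfur protein, had a difference of -0.89 and Cyc1, cytochrome c1, one of -0.82. The small subunits Uqcrq and Uqcr10 had the smallest differences, -0.57 and -0.56. Uqcrq was the one of the 9 with overlapping genotypes (208 and 156 against 161 and 82.6 CPM). In the other 8, every labelled KO library lay below every WT library, as in 26.9% of all genes. Under ibrutinib, Uqcrc1, Uqcrc2 and Cyc1 had every IBR library below every CTL library, a pattern of 7.55% of all genes. Cyc1 stood at 916, 942 and 782 CPM in CTL and at 672, 744 and 587 in IBR (-0.40 ± 0.20; adjusted p = 0.823).

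**Figure D3:**
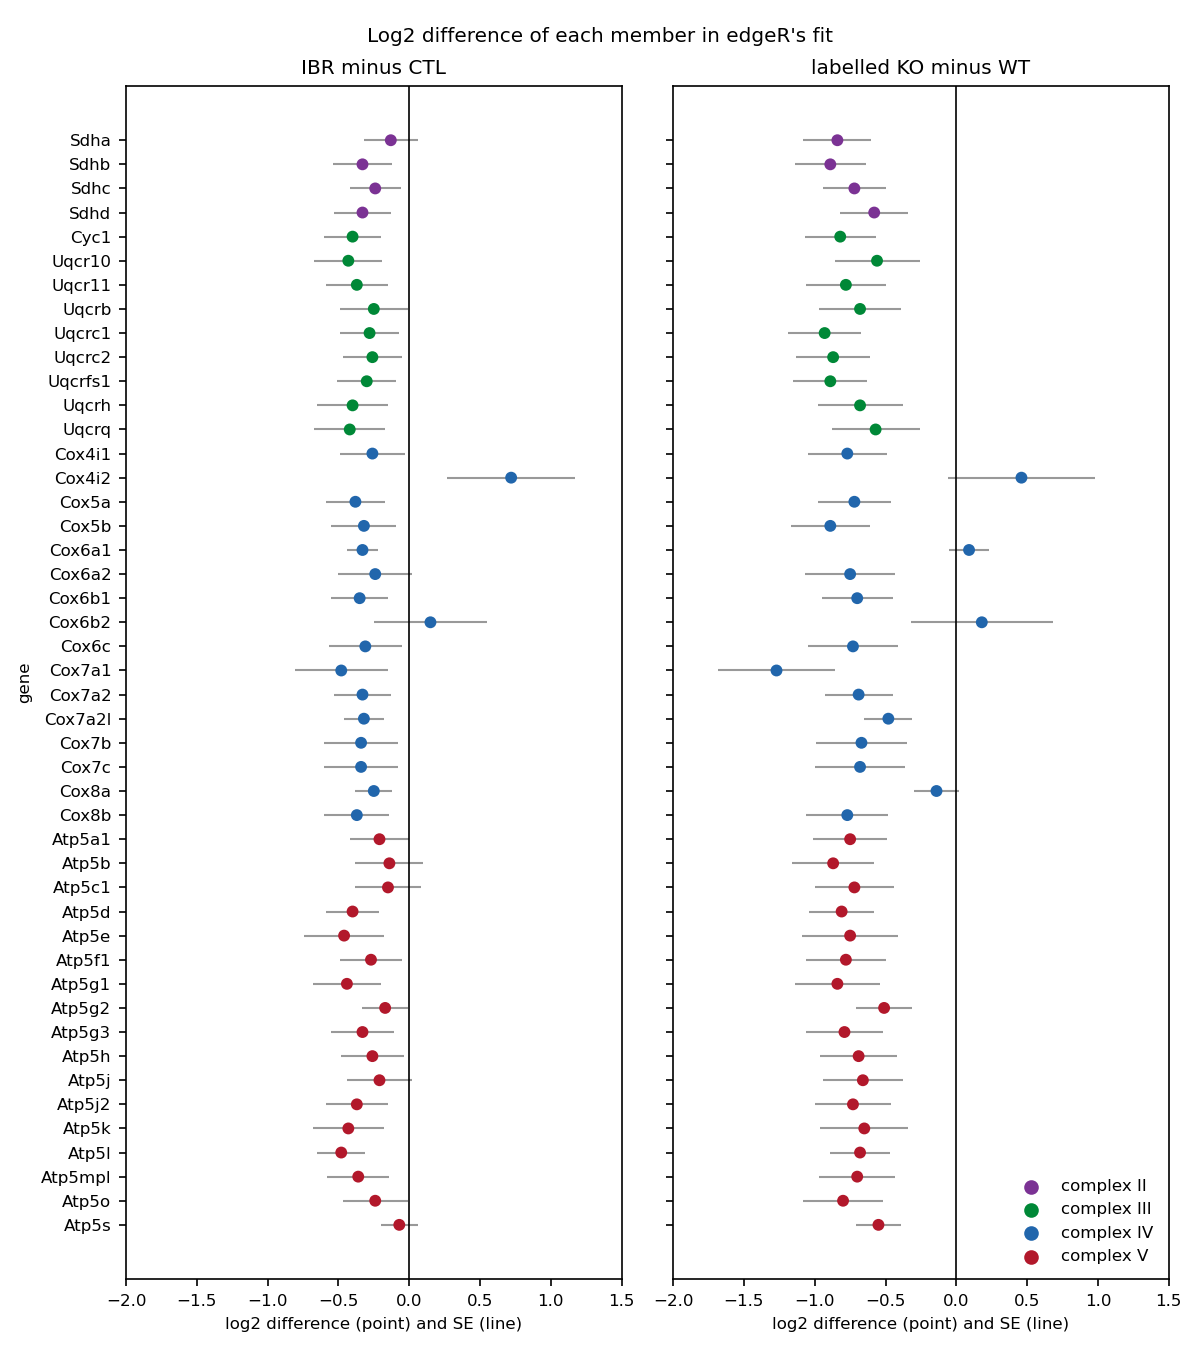
Log2 difference of each member (points, coloured by complex) with its standard error (lines) from edgeR's fit, IBR minus CTL on the left and labelled KO minus WT on the right. Most points lie between -0.5 and 0 on the left and between -1 and -0.5 on the right; Cox4i2, Cox6b2 and Cox6a1 lie above 0 on the right and Cox7a1 lies lowest at -1.27.

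Complex IV varied most among its own members. In the genotype experiment 13 of 16 genes were negative, the median was -0.70 and differences ranged from -1.27 to 0.46. Cox4i1 and Cox5a, which surround the catalytic core, had differences of -0.77 and -0.72, and Cox5b, the zinc-binding subunit, had 284 and 237 CPM in WT against 182 in KO26 and 98.7 in KO337 (-0.89 ± 0.28; edgeR adjusted p = 0.0995). Cox6b1, Cox6c, Cox7b and Cox7c, each without a paralog of comparable level here, had differences from -0.73 to -0.67. Cox7a2l, which takes part in joining complexes III and IV into supercomplexes, had 152 and 142 against 113 and 98.0 CPM (-0.48 ± 0.17). Cox4i2 (2.52 and 1.32 against 2.03 and 3.26 CPM) and Cox6b2 (0.989 and 1.76 against 1.80 and 1.31 CPM) overlapped between genotypes and had wide errors, 0.46 ± 0.52 and 0.18 ± 0.50.

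The muscle and widespread isoforms of complex IV had unequal differences in the genotype experiment. Cox7a1 had the largest difference of the 46 members: 376 and 309 CPM in WT, 200 in KO26 and 82.8 in KO337, or 41.3% of WT (-1.27 ± 0.41; edgeR adjusted p = 0.102). Its widespread partner Cox7a2 had 304 and 240 against 198 and 139 CPM (-0.69 ± 0.24). Both genes had every labelled KO library below every WT library, a pattern of 26.9% of all genes, and both were lowest in KO337. Cox6a2 had 631 and 514 against 465 and 215 CPM (-0.75 ± 0.32), while Cox6a1 had 50.0 and 48.6 against 50.6 and 54.0 CPM (0.09 ± 0.14). Cox8b had 184 and 150 against 129 and 68.1 CPM (-0.77 ± 0.29), while Cox8a had 98.1 and 91.8 against 83.9 and 88.0 CPM (-0.14 ± 0.16, and 0.08 when scaled by total counts). Cox6a1 was the one member with every labelled KO library above every WT library, a pattern of 26.3% of all genes, and its closest values differ by less than 1 CPM.

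The CPM ratio of 2 isoforms within a library does not depend on the scaling between libraries, and transcript length cancels when such ratios are compared between libraries, though not within one ratio. The CPM ratio of Cox6a2 to Cox6a1 was 12.6 and 10.6 in WT35 and WT338, 9.19 in KO26 and 3.99 in KO337, a mean log2 difference of -0.93. That of Cox7a1 to Cox7a2 was 1.24 and 1.29 in WT and 1.01 and 0.596 in labelled KO (-0.70), and that of Cox8b to Cox8a was 1.88 and 1.63 against 1.53 and 0.774 (-0.69). Each of these 3 ratios was below both WT libraries in both labelled KO libraries, and lowest in KO337. The ratio of Cox4i2 to Cox4i1 was 0.00267 and 0.00162 in WT and 0.00317 and 0.00836 in labelled KO (1.30), with Cox4i2 at 1.32 to 3.26 CPM. With 2 libraries against 2, a two-sided exact permutation test cannot go below p = 0.333, and no other test of the ratios was run. Under ibrutinib the first 3 ratios overlapped, with mean log2 differences of 0.10, -0.11 and -0.11, and that of Cox4i2 to Cox4i1 had 1.13. The ratio of Cox6a2 to Cox6a1, for example, was 17.3, 17.2 and 14.1 in CTL and 15.8, 18.1 and 18.0 in IBR.

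**Figure D4:**
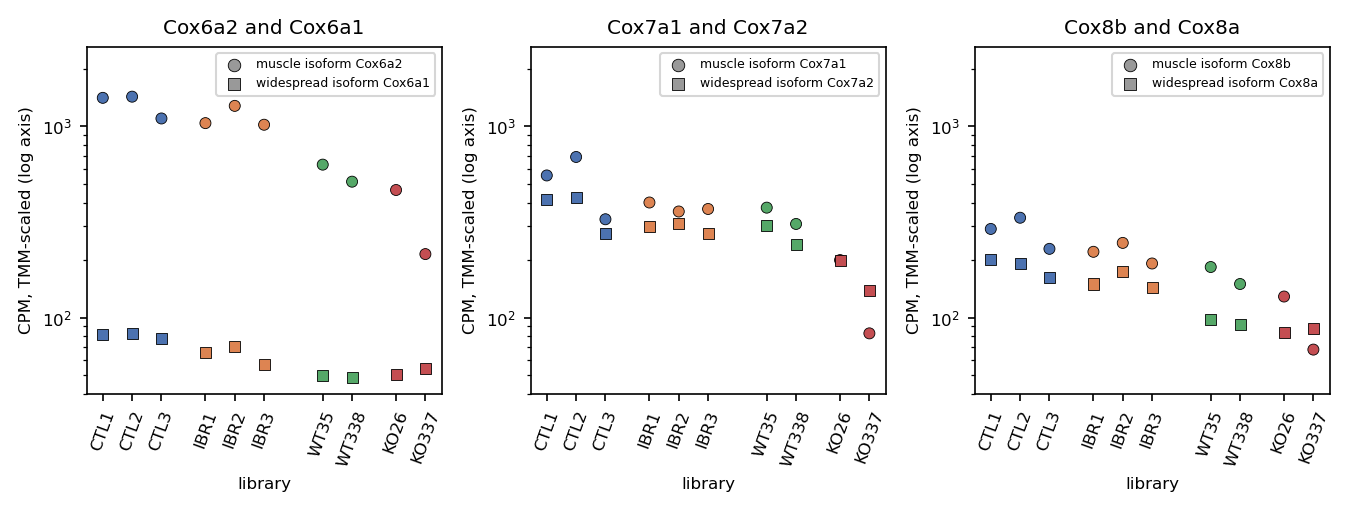
TMM-scaled CPM (log axis) of the muscle isoform (circles) and the widespread isoform (squares) of 3 complex IV subunits in each library, coloured by group. Cox6a1 stays between 48.6 and 54.0 CPM across WT and labelled KO while Cox6a2 goes from 631 to 215; in KO337 Cox7a1 and Cox8b lie under their partners, and in KO26 Cox7a1 is hidden behind Cox7a2 at about the same level.

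Under ibrutinib 14 of 16 complex IV genes were negative and the median was -0.33. Cox6a1 stood at 81.5, 83.0 and 78.2 CPM in CTL and at 65.6, 70.8 and 56.6 in IBR, with no overlap (-0.33 ± 0.11; unadjusted p = 0.0134, edgeR adjusted p = 0.823). Cox7a2l had 317, 339 and 249 against 232, 244 and 248 CPM (-0.32 ± 0.14), also without overlap, though CTL3 and IBR3 were close at 249 and 248. Cox7a1 had 554, 692 and 327 CPM in CTL and 400, 359 and 370 in IBR (-0.48 ± 0.33). Here CTL3 was lower than each IBR library. CTL3 lay inside or below the IBR range for every gene of the complex except Cox6a1 and Cox7a2l. Every IBR library below every CTL library, as in those 2 genes, was a pattern of 7.55% of all genes. Cox4i2 was the one gene of the complex with a difference over 0.5, at 0.455, 1.15 and 1.57 CPM in CTL and 1.79, 1.55 and 1.90 in IBR (0.72 ± 0.45).

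Complex V had 17 of 17 genes with negative differences in both experiments. In the genotype experiment 17 of 17 kept the labelled KO libraries below both WT libraries, a pattern of 26.9% of all genes. Atp5b stood at 5570 and 4900 CPM in WT, with 3680 in KO26 and 2030 in KO337 (-0.87 ± 0.29; edgeR adjusted p = 0.109), and Atp5a1 at 3940 and 3640 against 2820 and 1690 CPM (-0.75 ± 0.26). Of the central stalk, Atp5c1 (gamma), Atp5d (delta) and Atp5e (epsilon) had differences of -0.72, -0.81 and -0.75. Atp5d had the smallest adjusted p of the complex, 0.0812, with 380 and 309 against 234 and 158 CPM. Of the peripheral stalk, Atp5f1, Atp5h, Atp5j and Atp5o ranged from -0.80 to -0.66. Of the membrane part, the ring genes Atp5g1 and Atp5g3 had -0.84 and -0.79, and Atp5j2, Atp5k, Atp5l and Atp5mpl ranged from -0.73 to -0.65.

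The smallest genotype differences of complex V were those of Atp5g2 and Atp5s. Atp5g2, the third gene for ring subunit c, had 25.1 and 27.0 against 22.1 and 14.7 CPM (-0.51 ± 0.20), and Atp5s had 25.4 and 21.8 against 18.1 and 14.1 CPM (-0.55 ± 0.16; edgeR adjusted p = 0.0861). Under ibrutinib Atp5b had 8040, 7780 and 6750 CPM in CTL and 6300, 7430 and 6760 in IBR, overlapping, with a difference of -0.14 ± 0.24. Atp5l, a membrane subunit at the dimer interface, had 234, 247 and 165 against 160, 158 and 146 CPM (-0.48 ± 0.17; unadjusted p = 0.0168, edgeR adjusted p = 0.823). Its groups did not overlap, and neither did those of Atp5d and Atp5g1. Every IBR library lay below every CTL library in 7.55% of all genes. Atp5e had the widest gap inside CTL: 393 and 542 CPM in CTL1 and CTL2 and 233 in CTL3, below each IBR library (294, 280 and 277).

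Whether the genotype difference exceeded the treatment difference was tested directly. The labelled KO minus WT difference was the more negative one for 43 of 46 members, and the median difference of the 2 effects was -0.41, where all genes had 0.03. edgeR called 0 of 46 members, where it called 0.026% of all genes. At an unadjusted p under 0.05 there were 3 members, against 9.79% of all genes: Sdha at -0.72 (adjusted p = 0.497), Atp5s, and Cox6a1 in the other direction at 0.42 (adjusted p = 0.493). Without KO337 the median was -0.14 with 0 members called (0.019% of all genes), and without KO26 it was -0.86 with 14 members called (9.67% of all genes). DESeq2 (0.911% of all genes), edgeR without a filter (0.343%) and limma voom (0.0%) called 0 members in this test.

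The level of each complex was taken as the mean log2 CPM of its members. The mean log2 CPM over all members was 7.99 ± 0.17 (SD, n = 2) in WT and 7.28 ± 0.47 (n = 2) in labelled KO, a distance of -0.71 beside a pooled SD of 0.36. In CTL it was 8.71 ± 0.25 (n = 3) and in IBR 8.44 ± 0.08 (n = 3), a distance of -0.26 beside a pooled SD of 0.19. By complex the genotype distances were -0.79 for II, -0.80 for III, -0.57 for IV and -0.76 for V. The treatment distances were -0.25, -0.33, -0.21 and -0.27. The mean of complex IV includes Cox4i2 and Cox6b2, at most 3.26 CPM in any library, with positive differences in both experiments. Medians over the members were -0.78, -0.78, -0.70 and -0.73 for genotype and -0.28, -0.37, -0.33 and -0.27 for treatment. Differences between complexes were not tested.

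Markers of cardiomyocytes moved with the members. Of 14 tested, 14 had negative labelled KO minus WT differences (0 called), with a median of -0.88, and 41 of 46 members had a difference above that median. A further listed marker, Tnnc1, had 0 counts in every library, and the reason was not tested. The other listed troponin genes, Tnnt2 and Tnni3, had at least 961 CPM in each library. The summed level of the tested markers was 99838 and 93755 CPM in WT35 and WT338, 74970 in KO26 and 40602 in KO337; Tnni3, cardiac troponin I, had 3630 and 3060 against 2280 and 961 CPM. Relative to the mean log2 level of these markers the members stood 0.18 higher in labelled KO than in WT (pooled SD 0.14). The relative level was -4.06 and -4.19 in WT35 and WT338, -4.07 in KO26 and -3.82 in KO337. KO26 thus lay within the WT range and KO337 above it. By complex the difference was 0.09 for II, 0.08 for III, 0.31 for IV and 0.12 for V. KO26 lay between the WT libraries for II, III and V, and above both for IV (-4.87 against -4.97 and -5.06). The value of complex IV includes Cox4i2 and Cox6b2, whose genotype differences were 0.46 and 0.18 at 0.989 to 3.26 CPM. In the treatment experiment the markers had a median of -0.19, and the members stood -0.08 from them (pooled SD 0.08). The markers' part in the members' values was not tested.

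Markers of fibroblasts and leukocytes ran the opposite way in the genotype experiment. The 10 fibroblast markers had a median labelled KO minus WT difference of 1.64, with 10 positive and Thy1 called, and summed to 2778 and 2555 CPM in WT35 and WT338, 3251 in KO26 and 12559 in KO337. The 11 leukocyte markers had a median of 2.11, with 11 positive and 4 called, and summed to 325.1 and 317.1 CPM in WT, 1070 in KO26 and 2972 in KO337. The 8 endothelial markers (median 0.37) and the 8 smooth muscle and pericyte markers (0.82) had 0 called. Under ibrutinib, 10 of 10 fibroblast markers were positive with a median of 0.74, summing to 1128, 1062 and 1658 CPM in CTL and 2547, 1695 and 2288 in IBR, with 0 called. The leukocyte and endothelial markers had medians of 0.40 and 0.40 there (9 of 11 and 7 of 8 positive), the smooth muscle and pericyte markers one of 0.01 (4 of 8 positive), and the adipocyte markers one of -0.47 (7 of 8 negative), each with 0 called. Of 8 adipocyte markers tested, 6 were positive in labelled KO with a median of 0.52 and 0 called. Of these 8, Ppargc1a is also counted among the regulators of respiratory genes below. It was negative in both experiments (-1.41 in labelled KO and -0.77 under ibrutinib). Adipoq, a defining marker, was at 0 in CTL1 and at 0.115 to 4.12 CPM in the other libraries. None of the fibroblast, leukocyte or endothelial markers was at 0 in any library, and the part of these cells in the members' values was not tested.

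**Figure D5:**
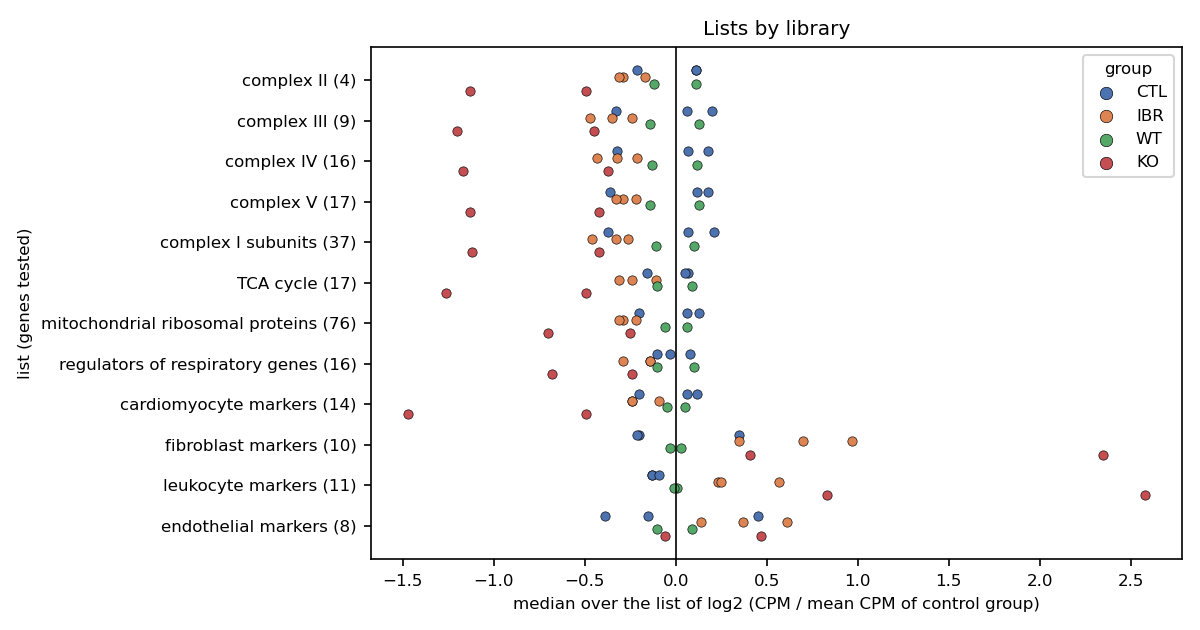
Median over each gene list (number of genes tested in brackets) of log2 of CPM over the mean CPM of the control group, CTL or WT, for each library. KO337 lies farthest left for the 4 complexes, at -1.13 to -1.20, and for cardiomyocyte markers, at -1.47, and farthest right for fibroblast and leukocyte markers, at 2.35 and 2.58; CTL3 lies near the IBR libraries for the complexes.

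Other mitochondrial genes also stood below wild type in the genotype experiment. Complex I starts the chain by oxidising NADH. Its subunits, taken by Nduf symbols, had a median of -0.74 (36 of 37 negative, 0 called), and genes of the TCA cycle one of -0.83 (17 of 17 negative, 0 called). The positive gene with an Nduf symbol was Ndufa4l2 (0.95), which is counted in complex I by its symbol only, as is Ndufa4. In the same lists Ndufa12 and Ndufa9 of complex I had -0.92 and -0.85, and Dlst and Sucla2 of the TCA cycle had -0.86 and -1.05. Carriers of nucleotides and phosphate had -0.76 (9 of 9 negative, 0 called); Ckmt2, the mitochondrial creatine kinase of muscle, had 1180 and 898 against 652 and 286 CPM (-1.15; edgeR adjusted p = 0.0811). Ubiquinone synthesis and cytochrome c had -0.67, with 14 of 15 negative, and Coq10b, a ubiquinone-binding protein, fell from 107 and 143 to 44.2 and 53.4 CPM (-1.35; edgeR adjusted p = 0.0329). Cycs, cytochrome c itself, had 270 and 221 against 191 and 83.9 CPM (-0.84; adjusted p = 0.152), and Coq8a, a kinase-like protein of ubiquinone synthesis, had a difference of -1.15. Mitochondrial ribosomal proteins had -0.48, with 73 of 76 negative, and Mrpl55 fell from 31.7 and 28.5 to 17.5 and 13.4 CPM (-0.96; edgeR adjusted p = 0.0320). Both calls were lost in a fit of the WT and KO libraries alone, at adjusted p-values of 0.297 for Coq10b and 0.307 for Mrpl55, with limma voom, at 0.102 and 0.0785, and on leaving out WT35, WT338, KO337, IBR1 or IBR3; that of Mrpl55 was also lost without CTL1 and that of Coq10b without CTL2, at 0.0543 and 0.0534.

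Genes that build the complexes had medians nearer 0, a distance that was not tested. The 28 assembly factors of complexes II, III and IV had a median of -0.35 (26 negative, 0 called) and the 5 of complex V one of -0.47 (5 negative, 0 called). Import and chaperone genes had -0.46 (25 of 25 negative, 0 called). Among the genes with the smallest p of these lists, Lyrm7 and Uqcc2, assembly factors of complex III, had -1.12 and -0.76, Tmem70 and Tmem242, needed to assemble complex V, had -0.44 and -0.47, and Timm44 and Pmpca, of the import machinery, had -0.61 and -0.62. None of these 6 passed the test. Surf1, an assembly factor of complex IV, had 24.9 and 20.7 against 22.1 and 25.7 CPM (0.06). Atpif1, the inhibitor of complex V, whose symbol lies outside the rule, had 27.9 and 28.4 against 30.0 and 26.8 CPM (0.01 ± 0.23).

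Regulators of respiratory genes were mixed: 13 of 16 negative, a median of -0.33 and 0 called. Ppargc1a, the coactivator known for driving mitochondrial biogenesis, varied widely within WT and within CTL. It stood at 272 and 725 CPM in WT35 and WT338, with 151 in KO26 and 225 in KO337 (-1.41; edgeR adjusted p = 0.228), and at 199, 700 and 164 in CTL against 166, 210 and 247 in IBR (-0.77). Its nuclear receptor partner Esrra had 107 and 102 against 84.3 and 44.8 CPM (-0.70), Perm1, a muscle coregulator of the same axis, had 250 and 281 against 199 and 99.5 (-0.83), and Tfam, the mitochondrial transcription factor, had 60.0 and 56.1 against 50.2 and 28.3 (-0.57). Nrf1, Gabpa and Yy1, whose motifs were searched above, had differences of 0.16, -0.10 and 0.02, each with an adjusted p of at least 0.625. Esrrg had -0.33, which became 0.04 without KO337.

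Under ibrutinib each of these lists had 0 genes called. Medians were -0.34 for complex I subunits (36 of 37 negative), -0.28 for mitochondrial ribosomal proteins (76 of 76 negative), -0.29 for assembly of complexes II, III and IV (28 of 28 negative), -0.21 for the TCA cycle (17 of 17 negative) and -0.17 for the regulators (14 of 16 negative). The genes with the smallest p included Mrps34 (-0.60), Tomm40, the pore of the outer membrane (-0.45), Pdss1 of ubiquinone synthesis (-0.64) and Cox18, an assembly factor of complex IV (-0.48), each with an adjusted p of 0.823. Perm1 had 408, 489 and 397 CPM in CTL and 291, 323 and 309 in IBR (-0.49, edgeR adjusted p = 0.823). Every IBR library lay below every CTL library for it, a pattern of 7.55% of all genes. Atpif1 had a difference of -0.12, which became 0.13 without CTL2.

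Levels of some members also differed between the experiments, whose libraries have no common group. Atp5l stood at 146 to 247 CPM in CTL and IBR and at 12.6 to 24.0 in WT and labelled KO, and its CTL mean was 10.4 times its WT mean. Atp5g2 stood at 117 to 154 against 14.7 to 27.0 CPM, a ratio of 5.37, and Atp5g1 had a ratio of 3.72, where the median member had 1.55. For 15 of the 46 members, another gene's transcript holds a stretch of at least 100 bases with at least 97% identity, so their counts are uncertain. Atp5l has such stretches in 5 other genes, Atp5g2 in 2 and Atp5g1 in 1. Atp5f1 and Atp5o have them in 3 each, with CTL to WT ratios of 1.61 and 1.72, and Atp5d has 0 with a ratio of 2.41. A link between such stretches and the ratios was not tested. Reads without a unique position were 17.9% to 27.4% of records in CTL and IBR and 11.8% to 14.7% in WT and labelled KO. Experiment and group cannot be told apart, and no test was made between CTL and WT.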

How the data were processed

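The data were raw counts of reads per gene in 10 libraries of poly(A) RNA, prepared with a strand-marking kit per the labels' protocols. The deposited counts were not normalized. STAR, HTSeq, edgeR and build mm9 are named, per the submitters' processing notes, and versions and annotation do not appear in the sources used here. Each library held 37583 genes, of which 32860 identifiers (87.4%) were matched to symbols of GENCODE vM21, which also gave gene types and transcript lengths. The 5 entries of unassigned reads per library were left out of the totals and of every test. They were 13.52% to 19.87% of records for no feature, 3.14% to 3.99% for ambiguous reads and 11.81% to 27.36% for reads placed at several positions. Per the names of the deposited files counting ignored strand, so overlapping and antisense genes cannot be told apart.

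Genes were kept by filterByExpr (minimum count 10, minimum total 15), which left 15364 genes, and TMM (trimmed mean of M values) set the scaling. Its factors were 1.157 for KO26, 1.228 for KO337 and 0.87 to 1.026 for the others. edgeR 4.0.16 in R 4.3.3 fitted all 10 libraries by quasi-likelihood with a mean per group, with contrasts for treatment, for genotype and for the difference between these effects. Benjamini-Hochberg adjustment ran over all genes, and called means an adjusted p under 0.05. The shared biological coefficient of variation was 0.221, against 0.167 in CTL and IBR alone and 0.291 in WT and labelled KO alone. CPM are TMM-scaled. Alternatives were other scalings, no filter, DESeq2 1.42.0, limma 3.58.1 voom with quality weights, the replicate number as a block, each experiment alone and leaving out each library. The script was tested on simulated data. Groups came from the titles, whose numbers name libraries. The members and gene lists were chosen with earlier results of these data known. Genes were named by a rule: the catalytic and core subunits, each isoform pair and the ring genes always, Atpif1, Ppargc1a, Esrra, Esrrg, Tfam, Cycs and Ckmt2 always, then the 3 other members per direction and the 2 genes per list with the smallest p, and any regulator or member called. Other genes were named after their values were seen, and a few that the rule takes stand in counts only.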

Additional observations from a re-analysis of the deposited data

Results flagged for a closer look

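Cox6a1, the widespread isoform of a complex IV subunit, had differences of opposite sign in the 2 experiments. They were -0.33 ± 0.11 under ibrutinib and 0.09 ± 0.14 in labelled KO, the latter smaller than its SE. Each IBR library (65.6, 70.8 and 56.6 CPM) lay below each CTL library (81.5, 83.0 and 78.2 CPM), a pattern of 7.55% of all genes. Each labelled KO library (50.6 and 54.0 CPM) lay above each WT library (50.0 and 48.6 CPM), a pattern of 26.3% of all genes. The difference of the 2 effects was 0.42 on the log2 scale (edgeR adjusted p = 0.493, and 0.19 to 0.828 over the alternatives), so it did not pass the test.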

How the results depend on the processing

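The medians of the members kept a negative sign under every alternative run in both experiments and in the difference of the effects. In IBR against CTL, 0 members were called under each alternative; with the replicate block the median was -0.28 and the smallest adjusted p 0.191, and genes called overall were 2 without a filter on low counts and 2 with DESeq2. Same-numbered CTL and IBR libraries deviated together with correlations of 0.016, 0.162 and 0.032, and CTL3 correlated best with IBR1 (0.182), so the numbers were taken as names. Leaving out 1 library gave 8 to 43 members with every IBR library below every CTL library. Fewer libraries make this pattern easier to meet. All genes held it at 7.55% with every library kept and at 19.8% without CTL3, where 43 members did.

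In labelled KO against WT, genes called overall were 339, and 1146 without a filter, 1830 with DESeq2, 124 with limma voom, 0 from the WT and KO libraries alone and 14 to 3933 on leaving out 1 library. Members called were 18 without a filter, 20 with DESeq2 and 0 to 40 on leaving out 1 library. Medians on leaving out 1 library were -1.15 to -0.51 for complex II, -1.22 to -0.47 for III, -1.18 to -0.39 for IV, -1.15 to -0.44 for V and -1.18 to -0.44 for all members.

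For the difference of the effects, genes called overall were 4, and 0 with upper quartile scaling, total counts or limma voom, 84 without a filter, 140 with DESeq2 and 0 to 1564 on leaving out 1 library. On leaving out 1 library, members called were 0 to 14, and medians -0.94 to -0.25 for complex II, -0.85 to -0.10 for IV and -0.86 to -0.14 for all members.

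Some single genes changed sign, and the cause was not tested. Cox8a became 0.08 in labelled KO with total counts and Atpif1 -0.02 without a filter. Cox6b2, at 1 to 3 CPM, became -0.13 under ibrutinib with limma voom and -0.05 in the difference of the effects without a filter. On leaving out 1 library, Cox6b2 ran from -0.28 to 0.41, Ppargc1a from -1.12 to 0.20 and Atpif1 from -0.28 to 0.13 under ibrutinib; Cox6b2 from -0.19 to 0.63, Atpif1 from -0.08 to 0.07 and Esrrg from -0.88 to 0.04 in labelled KO; and Cox6b2 from -0.36 to 0.49, Cox4i2 from -0.70 to 0.26 and Sdhd from -0.67 to 0.01 in the difference of the effects.

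With 2 or 3 libraries per group, a spread in the genotype experiment (0.291) above the shared one (0.221) limits the test. Over the alternatives the median genotype difference ran from -1.18 without KO26 to -0.44 without KO337, with -0.72 in the main fit. The median treatment difference ran from -0.45 without CTL3 to -0.22, with -0.32 in the main fit.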
